A study of Mus musculus with 4 samples.

Results

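The genes described here are 40 genes of the unfolded protein and heat shock responses, taken by symbol from a list of endoplasmic reticulum (ER) chaperones, sensors and transcription factors of the unfolded protein response (UPR), ATF4 and CHOP targets and heat shock proteins. All 40 were found among the 21862 genes listed once in the libraries. N31 NPCs are a mouse neural progenitor line made from iPSCs and carry doxycycline-inducible Oct4, Klf4, c-Myc and Sox2 transgenes. They were grown on soft (0.5 kPa) or stiff (12 kPa) matrices over type I collagen in medium that lacked EGF and bFGF. Srf-knockdown NPCs are N31 cells that express shSrf#1, a short hairpin RNA against the transcription factor gene Srf, and were grown alike. There was 1 library for each of the 4 conditions, so ratios are given without replicates and without p-values. With only 1 hairpin, its effect cannot be told apart from other ways in which the 2 cell populations may differ. Whether the control cells carry a control hairpin is not given in the sources used here.

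The unfolded protein response is set off when unfolded proteins build up in the ER lumen. The sensors Ern1 (IRE1), Eif2ak3 (PERK) and Atf6 then act through the transcription factors Xbp1, Atf4 and cleaved Atf6, which raise ER chaperones, ER-associated degradation and amino acid supply. Atf4 is also made when other eIF2alpha kinases slow translation, for example in amino acid shortage, and its partner Ddit3 (CHOP) shares targets with it. The heat shock response is a separate arm, in which Hsf1 raises chaperones of the cytosol and nucleus.

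Values are FPKM as deposited, which are reads divided by transcript length and by the mapped reads of the library, so that levels of different genes can be compared per length. By an estimate from the read steps of low values the libraries held between 24100000 and 62300000 reads. The targeted gene Srf was at 34.4 (0.5 kPa) and 35.6 (12 kPa) FPKM in the control population against 16.2 and 17.4 after knockdown, a log2 ratio of -1.09 and -1.03. Of 12 neural progenitor markers, 6 exceeded an FPKM of 2 in each of the 4 libraries, Nes and Pax6 among them. Sox1, Olig2 and Hes5 were listed at 0 in every library. Of 12 mesenchymal markers, 10 were above this minimum, and Col3a1 ranged from 1584 to 1908. Mesenchymal markers were thus expressed beside some of the neural progenitor markers.

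Promoter sequences of RefSeq (GRCm38.p6) were matched to 33 of the 40 genes, and the 250 bases before each start were searched on both strands. The first motif was the ER stress response element (CCAAT, a gap of 9 bases, then CCACG), which is bound by ATF6 and XBP1 together with NF-Y. It was found in 7 of the 33 genes (Hspa5, Hsp90b1, Calr, Canx, Pdia6, Dnajc3 and Creld2) and in 0.130% of the 27025 promoters searched. A related element (ATTGG, a gap of 1 base, then CCACG) was found in Herpud1, and in 0.0370% of all promoters. The ATF4 motif of C/EBP-ATF elements, TGATGNAA, was found in Herpud1, Chac1 and Asns, and in 3.91% of all promoters. The heat shock element (GAA, TTC and GAA with gaps of 2 bases between them) was found in the window shared by Hspd1 and Hspe1, which are transcribed away from each other, and in 0.514% of all promoters. The CArG box, the site of Srf, was searched as CCWWWWWWGG, where W is A or T. It had no match in the 33 windows and was found in 1.62% of all promoters. At so small a share no match is a likely outcome, and other forms of the site were not searched. Matches of different motifs did not overlap. A match is only a run of letters in the reference and was not tested for binding. The stretches below show elements of genes whose levels are described further on, 5′ to 3′ on the strand of the gene, with the match in capitals. Pdia6 and Dnajc3 hold the same element as Hspa5 but had other ratios in Srf-knockdown NPCs, and Asns and Chac1 were among the ATF4 targets that were lower on the 12 kPa matrix in control NPCs. Calr holds the element on the opposite strand, where it begins with CGTGG and ends with ATTGG. The stretches lie at chr2:34772010-34772058 (Hspa5), chr12:17266476-17266524 (Pdia6), chr14:118937812-118937860 (Dnajc3), chr8:84847060-84847108 (Calr, minus strand), chr6:7693210-7693247 (Asns, minus strand), chr2:119351034-119351071 (Chac1) and chr1:55088044-55088091 (Hspe1), all upstream of the start.
Hspa5: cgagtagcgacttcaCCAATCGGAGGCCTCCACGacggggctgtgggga
Pdia6: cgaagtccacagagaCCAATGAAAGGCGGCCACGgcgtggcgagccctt
Dnajc3: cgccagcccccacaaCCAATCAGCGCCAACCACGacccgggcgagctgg
Calr: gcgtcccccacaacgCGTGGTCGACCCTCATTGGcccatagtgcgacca
Asns: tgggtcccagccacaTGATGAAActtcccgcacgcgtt
Chac1: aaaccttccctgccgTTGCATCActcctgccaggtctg
Hspe1: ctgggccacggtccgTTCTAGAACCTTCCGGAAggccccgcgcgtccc

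Chaperones were among the most highly expressed genes of these cells. Hsp90ab1, the constitutive cytosolic Hsp90, was highest, with 1892 and 1877 FPKM in control NPCs against 1891 and 1776 in Srf-knockdown NPCs (0.5 and 12 kPa, the order used throughout). On the soft matrix it ranked 17 among the 21862 genes in control NPCs. P4hb, a protein disulphide isomerase that is also a subunit of collagen prolyl hydroxylase, came next in control NPCs (984 and 1010), while in Srf-knockdown NPCs Hspa8 (876 and 834) was above P4hb (785 and 764). Hsp90b1 (GRP94), Calr, Serpinh1 (the collagen chaperone HSP47), Pdia3, Hspa8 and Hspa5 (BiP) each lay between 501 and 876 in every library, and the order of these neighbours was not the same in all libraries. The sensors were low in comparison, with 4.76, 4.86, 4.12 and 4.48 for Ern1, 8.96, 9.86, 8.79 and 11.0 for Eif2ak3, and 13.8, 13.1, 15.4 and 13.5 for Atf6.

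Of the 40 genes, 39 exceeded an FPKM of 2 in each library, which was the minimum for the ratios below. The exception was Hspa1a, one of a pair of heat-inducible Hsp70 genes, with 0.57, 0.94, 1.15 and 1.37. Its near-identical neighbour Hspa1b had 4.12, 3.69, 5.79 and 6.0. Reads that map to both copies have a low mapping quality and were removed by the authors, so the levels of both genes are uncertain. Their sum was 4.69 and 4.64 in control and 6.94 and 7.38 in Srf-knockdown NPCs. Processed pseudogenes of Hspa8, Hspe1, Hsp90aa1 and Hsp90ab1 could take reads in the same way.

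**Figure D1:**
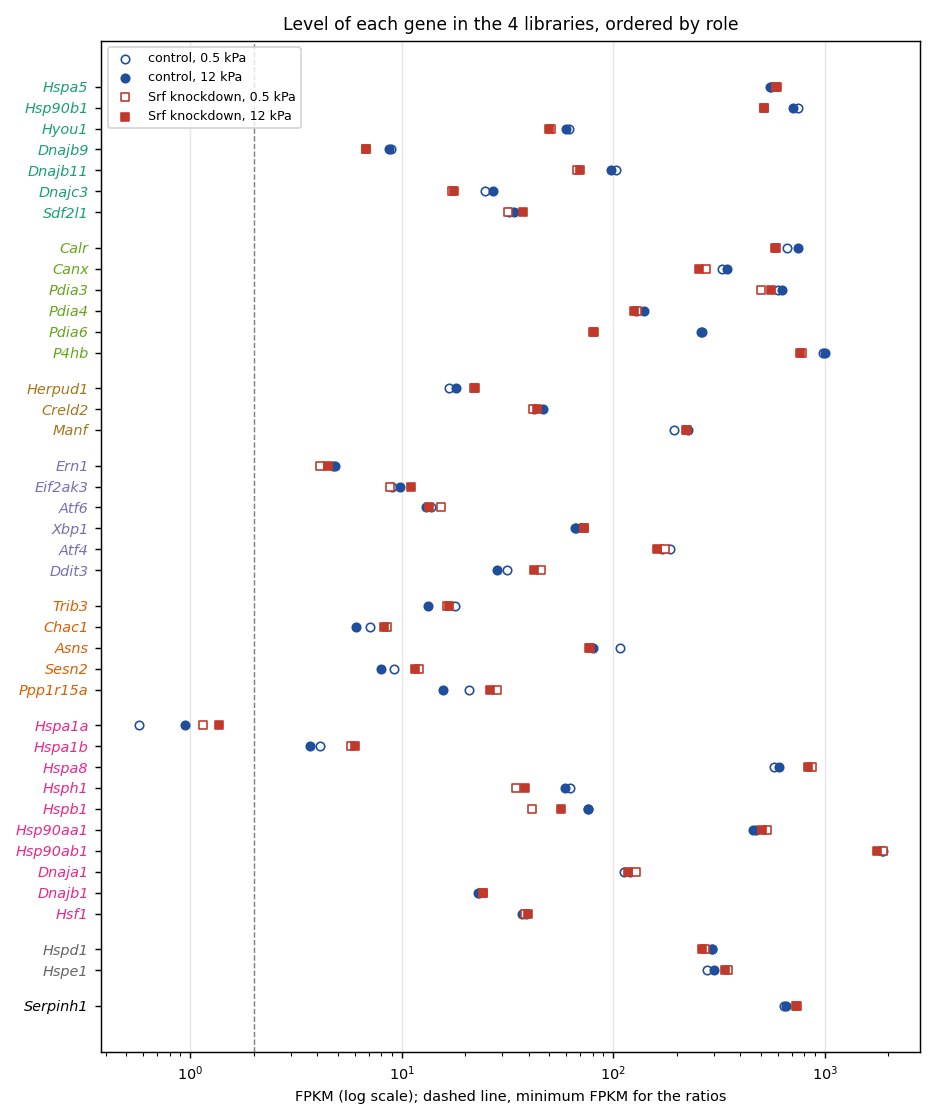
FPKM (log axis) of the 40 genes in control NPCs (circles) and Srf-knockdown NPCs (squares) on matrices of 0.5 kPa (open) and 12 kPa (filled), ordered by role, with 1 library for each symbol. Most of the 4 symbols of a gene lie close together, Pdia6 separates by cell population, and Hspa1a lies below the minimum FPKM of 2.

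The ratio of 12 to 0.5 kPa asks how the genes differed between a stiff and a soft matrix. In control NPCs the clearest group was the ATF4 and CHOP targets, a list chosen with earlier results of these data known. Of these targets, 5 of 5 were lower on the stiff matrix, beyond 1.1-fold, the threshold of the study's methods. Over all genes above the minimum, 16.9% were lower and 17.9% were higher by this threshold. Of the 39 members, 7 were lower and 3 were higher, and the median log2 ratio was 0.0049 against 0.0030 over all genes. The median was thus close to that of all genes, and the lower genes were these 5 targets together with Ddit3 and Hspa1b.

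Trib3, a pseudokinase that is induced by ATF4 and CHOP, was at 18.0 and 13.3 FPKM in control NPCs against 16.4 and 16.7 in Srf-knockdown NPCs. Asns, asparagine synthetase, had 107 and 80.1 in control against 76.6 and 77.5 in Srf-knockdown NPCs. Ppp1r15a (GADD34), the phosphatase subunit that reverses phosphorylation of eIF2alpha, had 20.9 and 15.7, then 28.3 and 26.1. The library that stands off differed from gene to gene: control at 12 kPa was the lowest for Trib3, control at 0.5 kPa was the highest for Asns, and both control libraries were below both Srf-knockdown libraries for Ppp1r15a. The log2 ratio of 12 to 0.5 kPa in control NPCs was -0.43 for Trib3, -0.42 for Asns and -0.41 for Ppp1r15a, with a standard error from counting alone of 0.08, 0.03 and 0.06.

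The other 2 targets were lower by less. Sesn2, a stress-induced inhibitor of mTORC1 signalling, had 9.24 and 8.04 in control NPCs, a log2 ratio of -0.20 with a counting error of 0.08. Chac1, which degrades glutathione, had 7.05 and 6.12, and its log2 ratio of -0.21 rests on about 295 and 212 reads, with a counting error of 0.13. Neither counting error covers differences between cultures or library preparations.

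The transcription factors that act on these targets had smaller ratios than Trib3, Asns and Ppp1r15a. Ddit3 had 31.7 and 28.3 in control NPCs, a log2 ratio of -0.16 with a counting error of 0.09, and was past the threshold. This ratio was close to those of Sesn2 and Chac1. Atf4 had 187 and 170, a log2 ratio of -0.14 that lies just within it. The Atf4 mRNA ratio was of the same size in Srf-knockdown NPCs, where Atf4 had 176 and 162 (-0.13). ATF4 is controlled mostly at translation, and its protein was not measured in these libraries.

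In Srf-knockdown NPCs, 0 of the 5 targets were lower by more than 1.1-fold, where 13.0% of all genes were. Their log2 ratios were 0.03 for Trib3, 0.02 for Asns, -0.12 for Ppp1r15a, -0.06 for Sesn2 and -0.05 for Chac1. The difference between the 2 populations was not tested, since each ratio comes from a single pair of libraries. It also depended on the scaling, because after centring within bins of transcript GC content Sesn2 (-0.14) and Ppp1r15a (-0.17) were lower as well. In Srf-knockdown NPCs the stiffness ratio followed GC content with a Spearman rho of 0.34 across 9569 genes, and in control NPCs with -0.13.

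**Figure D2:**
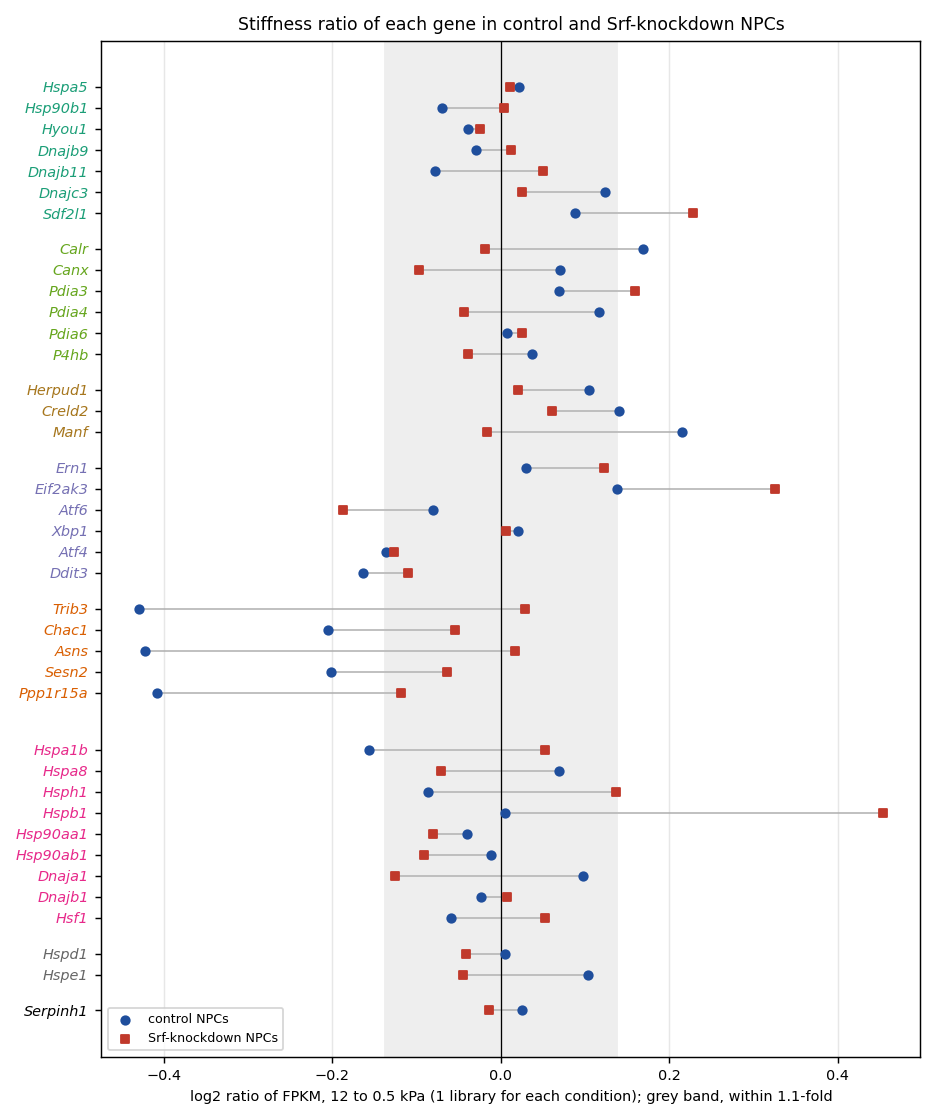
Log2 ratio of FPKM on the 12 kPa to that on the 0.5 kPa matrix in control (circles) and Srf-knockdown NPCs (squares) for the 39 genes above the minimum, ordered by role, with the band within 1.1-fold in grey. The 5 ATF4 and CHOP targets lie left of the band in control NPCs, between -0.43 and -0.20, and inside it in Srf-knockdown NPCs.

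Other ATF4 targets were lower in control NPCs too, in lists that were also chosen with earlier results of these data known. A list of amino acid synthesis, amino acid transport and stress genes held 23 genes above the minimum. Of these, 13 were lower on the stiff matrix in control NPCs and 1 was higher (Cebpg), against 16.9% and 17.9% of all genes. The median log2 ratio of the 23 was -0.15. Slc7a3, a transporter of cationic amino acids, had 8.89 and 5.25 in control (-0.76) and 6.28 and 5.74 in Srf-knockdown NPCs (-0.13). Among 12 cytosolic aminoacyl-tRNA synthetases, which charge tRNAs with amino acids, 12 had a ratio below 0 in control NPCs. Of these 5 were past the threshold, where 16.9% of all genes were, and the median ratio of all genes was 0.0030. Aars had the lowest ratio of the synthetases, with 76.1 and 57.4 in control (-0.41) and 79.1 and 78.6 in Srf-knockdown NPCs (-0.01). In Srf-knockdown NPCs, 6 of the 23 targets were lower and 3 were higher, and 2 of the 12 synthetases were lower. Over all genes 13.0% were lower and 17.6% higher there, so the counts of higher targets and lower synthetases were near those shares. Here the scaling mattered again, since 10 of the 23 were lower after scaling to the 75th percentile.

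Early response genes of growth factor signalling moved in the same comparison. Of 7 such genes that were listed, 6 were above the minimum. In control NPCs 5 of the 6 were lower on the stiff matrix by more than 1.1-fold, where 16.9% of all genes were. After Srf knockdown 4 of the 6 were lower by this threshold, against 13.0% of all genes. The median log2 ratio of the 6 was -0.73 in the control population and -0.21 after knockdown. The summed FPKM of the 7 was 208 and 113 in control NPCs against 374 and 291 in Srf-knockdown NPCs, and none was listed at 0. Atf3 belongs to this list as well as to the ATF4 targets. Their part in the lower levels of the ATF4 targets was not tested.

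**Figure D3:**
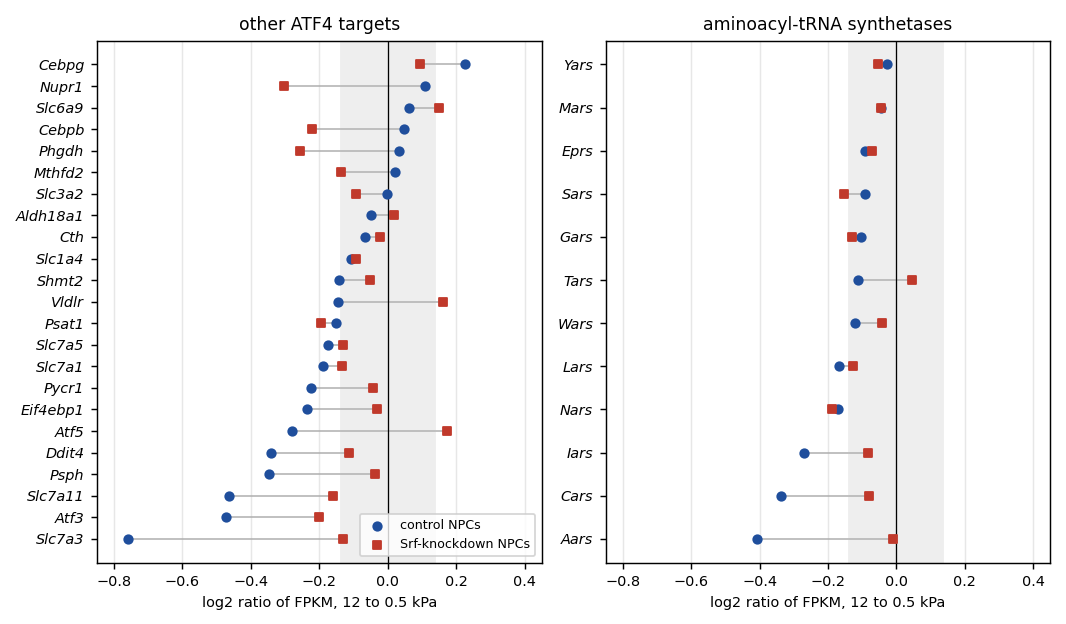
Log2 ratio of FPKM on the 12 kPa to that on the 0.5 kPa matrix for 23 other ATF4 targets (left) and 12 aminoacyl-tRNA synthetases (right), ordered by the ratio in control NPCs (circles), with Srf-knockdown NPCs as squares and the band within 1.1-fold in grey. In control NPCs the synthetases reach from -0.41 to -0.03, all below 0, and the other targets from -0.76 to 0.23.

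The genes counted as ER genes were 7 lumenal Hsp70 and Hsp90 chaperones and cochaperones, 6 lectin chaperones and disulphide isomerases, and Herpud1, Creld2 and Manf. Serpinh1 was counted apart. Of the 16 ER genes, 3 were higher and 0 lower on the stiff matrix in control NPCs, against 17.9% and 16.9% of all genes. Another 4 had ratios below 0 that stayed within the threshold (Hsp90b1, Hyou1, Dnajb9 and Dnajb11). Whether the 16 differed from the ATF4 targets was not tested. Manf, a secreted protein induced by ER stress, had 195 and 226 in control NPCs (0.22) against 223 and 220 in Srf-knockdown NPCs (-0.02). Calr, the lectin chaperone calreticulin, had 664 and 747 (0.17), then 588 and 580 (-0.02). Creld2, also induced by ER stress, had 42.4 and 46.7 (0.14), close to the threshold, and 41.8 and 43.6 (0.06). Hspa5, the chaperone most used as a readout of the unfolded protein response, differed little, with 553, 561, 592 and 596 and a stiffness ratio of 0.02 and 0.01.

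In Srf-knockdown NPCs, 4 of the 39 genes were higher on the 12 kPa matrix and 1 was lower, against 17.6% and 13.0% of all genes. They were of several roles. Hspb1, the small heat shock protein HSP27, which binds actin filaments, had 41.2 and 56.5 (0.45), and 76.0 and 76.3 in control NPCs. Eif2ak3 was higher (0.33), and its control ratio of 0.14 lay just within the threshold. Sdf2l1, a partner of ER J-domain proteins, had 32.0 and 37.4 (0.23), and Pdia3, the disulphide isomerase that works with calreticulin, had 501 and 560 (0.16). Atf6 was lower (-0.19).

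The ratio of Srf-knockdown to control NPCs compares the populations on the same matrix, and 1.5-fold was used as the threshold, since this ratio spread more. At 0.5 kPa, 4 of the 39 genes were lower and 1 was higher, against 9.28% and 9.19% of all genes. At 12 kPa, 3 were lower and 2 higher, against 8.88% and 10.2%. The libraries at 0.5 kPa and 12 kPa are not shared between these ratios. At both stiffnesses 2 genes were lower, Pdia6 and Hsph1, and 0 were higher, while 6.17% of all genes were lower and 6.63% higher at both. After centring within bins of GC content the 2 lower genes were Pdia6 and Hspb1, so that Hsph1 was lost and Hspb1 gained. The share of members past the threshold was thus near or below that of all genes in each direction, and the description below is of single genes and roles. Among markers of other cell types, 5 of 8 neuron markers were above the minimum, and their summed FPKM was 59.4 and 62.8 in control against 125 and 120 in Srf-knockdown NPCs, with Rbfox3 listed at 0 in every library and Dcx near 0. Stmn2 (1.76 and 1.72) and Map2 (0.79 and 0.51) carried this sum, while Snap25 (-0.52 and -0.60) and Syt1 (-0.09 and -0.36) had ratios below 0. The median of the 5 was 0.02 at 0.5 kPa and 0.51 at 12 kPa, or -0.07 and 0.02 after GC centring. The summed FPKM of the 12 mesenchymal markers lay between 3310 and 3535, but Postn was lower (-2.64 and -2.82) and Dcn higher (1.54 and 1.60). Among the progenitor markers Sox2 (2.15 and 1.89) and Pax6 (1.31 and 0.97) were higher and Nes (-1.65 and -1.22) was lower. Sox2 reads may include those of the transgene. The part of cell states in the ratios was not tested.

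Pdia6, an ER disulphide isomerase that also binds the sensors Ern1 and Eif2ak3, was the member with the lowest ratio. It was at 261 and 262 FPKM in control against 80.1 and 81.5 in Srf-knockdown NPCs. Its level fell by 1.70 on the log2 scale at 0.5 kPa and by 1.69 at 12 kPa, to 0.31 of the control level, which was at percentile 0.64 and 0.35 of all genes. The matrix made almost no difference to it in either population. The other disulphide isomerases stayed within 1.5-fold, with log2 ratios at 0.5 and 12 kPa of -0.26 and -0.17 for Pdia3, 0.01 and -0.15 for Pdia4 and -0.33 and -0.40 for P4hb.

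Most ER chaperones had ratios below 0 without passing the threshold. Of the 16 ER genes, 12 were below 0 at 0.5 kPa and 13 at 12 kPa. Their median was -0.26 and -0.31, against 0.011 and 0.010 over all genes. After GC centring it was -0.18 and -0.22. The collagen chaperone Serpinh1, also of the ER but counted apart from the 16, had 0.20 and 0.16 (0.05 and -0.04 after GC centring). Hsp90b1, the ER Hsp90, had 745, 710, 515 and 516, so that both control libraries were above both Srf-knockdown libraries (-0.53 and -0.46). Dnajb11, a J-domain partner of Hspa5, had 103, 97.6, 67.6 and 69.9, and its log2 ratio was past the threshold at 0.5 kPa (-0.61) and within it at 12 kPa (-0.48). Subtraction of the chromosome median brought the 0.5 kPa ratio of Dnajb11 to -0.57, within the threshold. Dnajc3 (p58IPK), a cochaperone that also inhibits PERK, had 24.8, 27.1, 17.3 and 17.6, and passed it at 12 kPa (-0.62) but not at 0.5 kPa (-0.52). After GC centring the 12 kPa ratio of Dnajc3 was -0.41, within the threshold. Summed over the 16 genes, the FPKM was 4749 and 4923 in control and 3924 and 3946 in Srf-knockdown NPCs.

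Hspa5 itself went the other way by a small amount, with log2 ratios of 0.10 and 0.09, as did Xbp1 (0.14 and 0.12) and Herpud1, a component of ER-associated degradation (0.38 and 0.30). Herpud1 had 16.8 and 18.1 in control and 21.9 and 22.3 in Srf-knockdown NPCs. None of these 3 passed the threshold. After GC centring Hspa5 had 0.13 and 0.17 and Herpud1 0.28 and 0.15, while Xbp1 was near 0 (0.04 and -0.03). The ratio of Hspa5 to its nucleotide exchange factor Hyou1 was 8.96 and 9.34 in control and 11.7 and 12.0 in Srf-knockdown NPCs.

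Several ratios to control of the ATF4 and CHOP arm were smaller after GC centring. Over the 5 targets the median was 0.28 at 0.5 kPa, or 0.10 after GC centring, and 0.43 at 12 kPa, or 0.13 after it. Ddit3 had 31.7 and 28.3 in control and 45.5 and 42.2 in Srf-knockdown NPCs, a log2 ratio of 0.52 and 0.58 that lies just within the threshold at 12 kPa. Ppp1r15a passed it at 12 kPa (0.73) and not at 0.5 kPa (0.44). After GC centring the 12 kPa ratio of Ppp1r15a was 0.50, within the threshold, and that of Ddit3 was 0.42. Sesn2 went from 0.52 to 0.19, Chac1 from 0.43 to 0.13 and Trib3 from 0.33 to 0.05. Asns had -0.49 at 0.5 kPa and -0.05 at 12 kPa, and the control library at 0.5 kPa, in which it was highest, enters this ratio and the stiffness ratio of control NPCs alike. Ratios to control rose with transcript GC content, with a Spearman rho of 0.27 at 0.5 kPa and 0.41 at 12 kPa across 9569 genes.

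**Figure D4:**
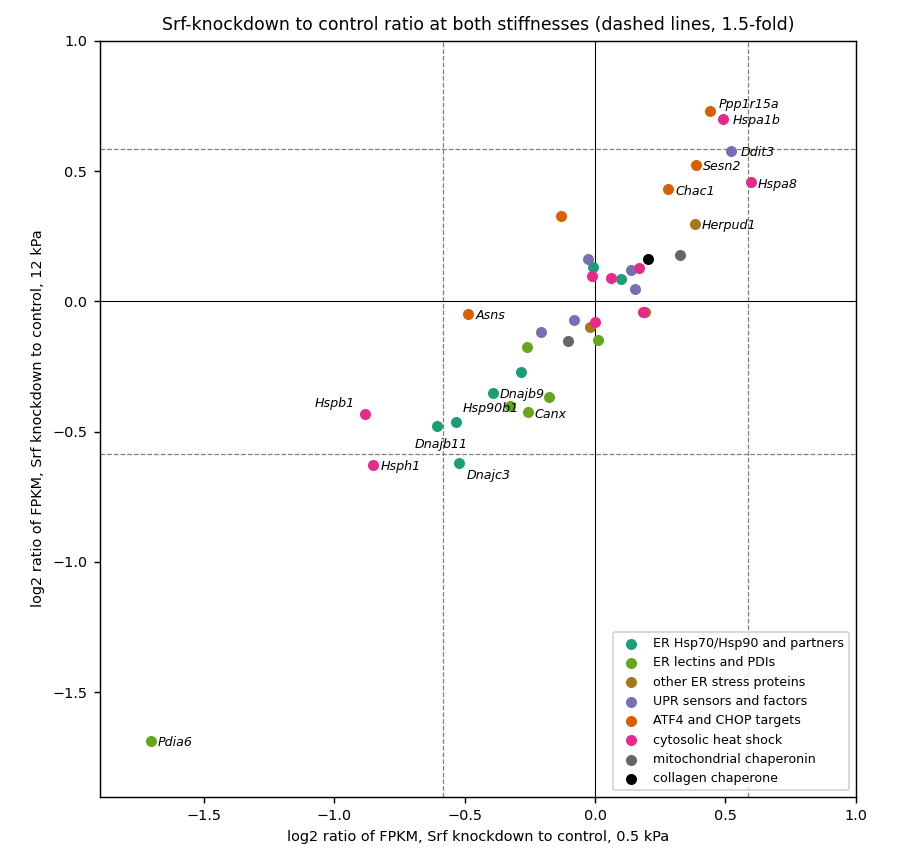
Log2 ratio of FPKM in Srf-knockdown to control NPCs at 0.5 kPa (horizontal axis) and at 12 kPa (vertical axis) for the 39 genes above the minimum, coloured by role, with dashed lines at 1.5-fold. Pdia6 lies alone at -1.70 and -1.69, Hsph1 is the other gene past both lines, and several ER Hsp70 and Hsp90 partners lie near -0.5.

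The cytosolic heat shock genes did not move as a group, with medians of 0.06 and 0.09 over the 9 genes above the minimum. Hsph1 (HSP110), a nucleotide exchange factor of Hsp70, had 62.8 and 59.2 in control and 34.8 and 38.3 in Srf-knockdown NPCs, so it fell by 0.85 and 0.63 on the log2 scale. Its 12 kPa ratio was -0.54, within the threshold, after GC centring. Hspb1 fell by 0.88 at 0.5 kPa and had a ratio of -0.43 at 12 kPa. GC centring moved Hspb1 the other way, to -1.22 and -0.91, past the threshold at both stiffnesses.

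Hspa8, the constitutive Hsp70 (HSC70), went the other way. It had 579 and 607 in control and 876 and 834 in Srf-knockdown NPCs, and its log2 ratio of 0.60 was just past the threshold at 0.5 kPa (0.54 after GC centring) and was 0.46 at 12 kPa. Hspa1b had 0.49 at 0.5 kPa and 0.70 at 12 kPa (0.42 after GC centring). The regulator Hsf1 had 38.7, 37.1, 38.3 and 39.8, with ratios of -0.01 and 0.10. Hsp90aa1, Hsp90ab1, Dnaja1 and Dnajb1 stayed between -0.08 and 0.18, so genes known as Hsf1 targets differed from each other in direction.

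The mitochondrial chaperonin genes share a promoter and did not keep a fixed ratio. Hspd1 (HSP60) had 292, 293, 272 and 264 and Hspe1 (HSP10) had 279, 300, 350 and 339. The ratio of Hspd1 to Hspe1 was 1.05 and 0.979 in control and 0.778 and 0.780 in Srf-knockdown NPCs. Serpinh1 had 646, 657, 743 and 736, with ratios of 0.20 and 0.16.

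Ratios of Srf-knockdown to control NPCs differed by chromosome, and chromosome 14 had the lowest median. Over the 336 included genes of chromosome 14, the median log2 ratio to control was -0.45 at 0.5 kPa and -0.42 at 12 kPa, and 89.9% and 84.2% of them were below 0. Medians of the other 19 chromosomes lay between -0.19 and 0.30 at 0.5 kPa and between -0.14 and 0.24 at 12 kPa. Dnajc3 is the only one of the 40 genes on chromosome 14. The 20 genes nearest to it had medians of -0.54 and -0.45, and after subtraction of the chromosome median Dnajc3 had -0.07 and -0.20. The number of copies of a chromosome was not measured, and its part in these values was not tested.

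Pdia6 lies on chromosome 12, whose genes had medians near 0, and its ratios were -1.72 and -1.70 after subtraction of them. Of the included genes nearest to it, some also had ratios below 0. Rock2, a kinase of actomyosin contraction, fell by 0.65 at 12 kPa and had -0.58 at 0.5 kPa, Pqlc3 fell by 0.59 at 12 kPa, and Nol10 fell by 0.68 and 0.66. A little farther away Lpin1 was higher (0.80 and 0.60), and Hpcal1 had 0.18 and 0.36. The 20 nearest genes had medians of -0.19 and -0.17. Whether the low level of Pdia6 has to do with its place was not tested.

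**Figure D5:**
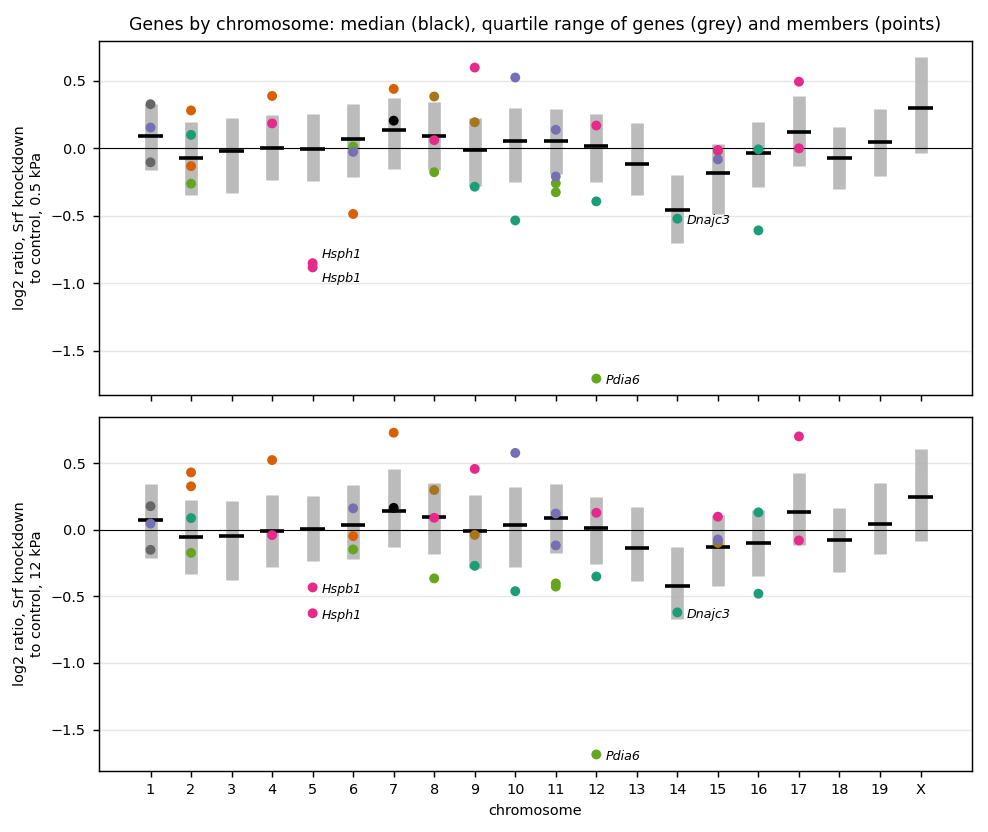
Log2 ratio of FPKM in Srf-knockdown to control NPCs by chromosome at 0.5 kPa (top) and 12 kPa (bottom), with the median of all included genes of a chromosome as a black line, their lower to upper quartile as a grey bar and the 39 genes above the minimum as points coloured by role. Dnajc3 sits near the low median of chromosome 14 (-0.45 and -0.42), while Pdia6, Hsph1 and Hspb1 lie below the grey bars of their chromosomes. Several ER genes, among them Hsp90b1 and Dnajb11, also lie below theirs.

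Other genes of the same pathways were read from a list of 192, of which 189 were found and 182 were above the minimum. At both stiffnesses 9 of these were higher and 8 were lower in Srf-knockdown NPCs by more than 1.5-fold, again close to the share of all genes. With GC centring, 4 of the 9 (Cebpb, Cryab, Pfdn2 and Vldlr) and 5 of the 8 (Edem1, Ero1l, Plod1, Plod2 and Slc7a11) stayed past the threshold at both. The 5 higher genes lost were Syvn1, Derl3, Ddit4, Bbc3 and Hspbp1, and the 3 lower genes lost were Ssr3, Uggt2 and Hspa13. GC centring also gained 1 higher gene (Sec61g) and 2 lower genes (Slc7a1 and Spcs1). After it, 5 were higher and 7 lower among the 174 genes with a GC value. Genes of ER-associated degradation differed in direction. Syvn1 (HRD1), its central ubiquitin ligase, had 33.3, 32.8, 53.1 and 56.4, and the channel-related Derl3 was higher at a low level (2.36, 3.14, 3.55 and 4.93), while Edem1, which trims mannose from glycoproteins bound for degradation, had 49.3, 49.8, 27.5 and 28.9.

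Of 24 other ER folding enzymes above the minimum, 2 were lower at both stiffnesses, Ero1l and Uggt2, against 6.17% of all genes. Ero1l, the oxidase that recharges disulphide isomerases, had 17.1, 17.7, 8.69 and 8.12 (-0.98 and -1.12). It lies on chromosome 14, as does Uggt2 (-0.71 and -0.76), a paralogue of the glucosyltransferase that sends glycoproteins back to calnexin. Both genes thus lie on the chromosome with the low median. Plod1 and Plod2, lysyl hydroxylases of collagen, had -1.23 and -0.98, and -0.69 and -0.79. Of 11 collagen-modifying enzymes, 9 had a ratio below 0 at 0.5 kPa and 11 at 12 kPa. Their medians were -0.33 and -0.33, against 0.011 and 0.010 over all genes. P4ha3, a prolyl hydroxylase subunit, was higher on the 12 kPa matrix in control NPCs, with 21.3 and 34.2 (0.69). Ssr3, a subunit of the translocon-associated complex, had 226, 236, 138 and 137, and Hspa13, an Hsp70 of the microsomal membrane, had 39.8, 43.8, 23.3 and 23.4.

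ATF4 targets went in both directions between the populations. Slc7a11, the cystine transporter, had 15.2, 11.0, 4.59 and 4.11 (-1.73 and -1.43). In contrast Ddit4 (REDD1), an inhibitor of mTORC1, had 49.2, 38.8, 78.8 and 72.9 (0.68 and 0.91). Cebpb was higher with 19.2, 19.8, 50.2 and 43.0, and Vldlr with 4.24, 3.83, 9.55 and 10.7. Bbc3 (PUMA), a BH3-only protein of apoptosis that p53 also induces, had 10.8, 10.9, 20.5 and 21.4 (0.92 and 0.97). Of the 23 other ATF4 targets, 3 were higher and 1 was lower at both stiffnesses, against 6.63% and 6.17% of all genes. Their medians were 0.03 and 0.12. After GC centring Slc7a1 was lower past the threshold at both as well (-0.67 and -0.60), and Ddit4 fell within it at 0.5 kPa (0.50).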

How the data were processed

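RNA-seq was analysed for 4 libraries, control and shSrf#1 NPCs at 0.5 and 12 kPa, grouped by the labels. Per the labels and the methods of the study, the authors trimmed single-end reads (cutadapt 1.9.1), mapped them (TopHat2 2.1.0, Bowtie2 2.2.8) to mm10, guided by GENCODE M14, removed reads with a mapping quality below 20 and computed expression with Cufflinks 2.2.1. The deposited values are FPKM and were used without rescaling. The 63 symbols listed more than once were left out. The 10489 genes that exceeded an FPKM of 2 in each library entered the log2 ratios, which had no pseudocount. With 1 library per condition no test was run. All members were named, and other pathway genes were named when beyond 1.5-fold in 1 direction at each stiffness or beyond 1.5-fold in a stiffness ratio. The members and lists were chosen with earlier results of these data known.

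Reads per gene, and their counting errors, were estimated from whole-read steps of low values and transcript lengths, and are approximate. Reads cover counting only. The calculations were tested on simulated data. Of 192 other pathway symbols, 189 matched. GC content came from GENCODE transcripts for 91.2% of genes, and positions and promoters from RefSeq on GRCm38. Alternatives were minimum FPKM of 1 or 5 in all libraries, or 2 in the mean, a pseudocount of 1 with and without the minimum, centring by median or GC (50 bins), 75th percentile scaling and other thresholds. Centring by chromosome was chosen after the data were seen. Tools were Python 3.11.15, pandas 2.3.3, numpy 2.4.6 and matplotlib 3.10.9.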

Additional observations from a re-analysis of the deposited data

How the results depend on the processing

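The fold threshold set most of the counts. In control NPCs the 3 genes higher and 7 lower on the 12 kPa matrix became 0 and 3 at 1.2-fold, and 0 and 0 at 1.5-fold and at 2-fold. In Srf-knockdown NPCs the 4 higher and 1 lower became 2 and 0 at 1.2-fold, and 0 and 0 at 1.5-fold and 2-fold. The lower count became 5 with GC centring and 3 with chromosome centring. For Srf knockdown to control at 0.5 kPa, 1 higher and 4 lower became 13 and 14 at 1.1-fold, 8 and 10 at 1.2-fold, and 0 and 1 at 2-fold, and the higher count was 0 with GC centring. At 12 kPa, 2 higher and 3 lower became 11 and 14 at 1.1-fold, 8 and 11 at 1.2-fold, and 0 and 1 at 2-fold. The higher count at 12 kPa was 1 with a minimum FPKM of 5, with a pseudocount of 1 (with or without the minimum) and with chromosome centring, and 0 with GC centring. At both stiffnesses, 0 higher and 2 lower became 9 and 12 at 1.1-fold, 7 and 9 at 1.2-fold, and the lower count was 1 at 2-fold. The 5 ATF4 and CHOP targets lower in control NPCs were 3 at 1.2-fold and 0 at 1.5-fold. The 13 other ATF4 targets lower there were 6 at 1.2-fold and 1 at 1.5-fold. Of 150 recomputed ratios of single genes past a threshold, 18 fell within it and 0 changed direction, and 7 of the 25 under GC centring fell within it. Apart from thresholds, which act by construction, the cause was not tested. No paired analysis was possible because there was only 1 library per condition. Counting error is small for most of the genes and largest for Hspa1a, which had about 45.3 estimated reads in control NPCs at 0.5 kPa.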

Other observations

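Further chaperone systems of the cytosol and mitochondria were read from the same lists. In Srf-knockdown NPCs the small heat shock protein Cryab (alphaB-crystallin) had an FPKM of 49.6 and 50.9 against 25.3 and 27.9 in control NPCs (0.97 and 0.87), the opposite direction to Hspb1. Hspbp1, which releases nucleotide from Hsp70, had 44.8 and 44.3 against 25.3 and 27.1 (0.83 and 0.71), and its 12 kPa ratio was 0.37, within 1.5-fold, after GC centring. Pfdn2, a prefoldin subunit that hands actin and tubulin to the cytosolic chaperonin, had 212 and 190 against 107 and 104 (0.98 and 0.86). It was the only one of 13 chaperonin and prefoldin genes above the minimum to pass 1.5-fold at both stiffnesses. Over all genes 6.63% were higher at both.

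Of 11 Hsp90 cochaperones, 0 were past 1.5-fold at either stiffness, with medians of 0.02 and 0.01. Of 11 genes of mitochondrial proteostasis, 0 were past it at 0.5 kPa, and 1 was higher and 1 lower at 12 kPa. Over all genes 9.19% were higher and 9.28% lower at 0.5 kPa, and 10.2% and 8.88% at 12 kPa. Counts in lists of 11 genes are near these shares. The constitutive to inducible ratio of cytosolic Hsp90, Hsp90ab1 to Hsp90aa1, was 3.99 and 4.07 in control and 3.55 and 3.53 in Srf-knockdown NPCs.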
